A study of Drosophila melanogaster with 2 samples.

Results

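Binding of a Dip2-eGFP fusion protein was examined at 10 heat shock and Hsc70 chaperone genes of Drosophila melanogaster, out of 13968 protein-coding genes on the 7 chromosome arms. The genes were chosen by name, with earlier results of these data known. They were the small heat shock genes Hsp22, Hsp23, Hsp26 and Hsp27 and the heat-inducible Hsp70-family gene Hsp68. The constitutively expressed members were Hsp60A, Hsp83, Hsc70-3, Hsc70-4 and Hsc70-5. A peak was assigned to a gene when its summit lay in the gene body or within 1 kb of it in the Ensembl release 115 models on dm6. In the main list of thresholded peaks, 4 of the 10 genes had such a summit: Hsp27, Hsp83, Hsc70-4 and Hsc70-5. The share over all protein-coding genes was 5.43%. The thresholded lists of the single replicates held 1 of the 10 genes in replicate 1 and 3 in replicate 2.

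The data are ChIP-seq of whole embryos aged 0 to 18 hours, from 1 group of 2 biological replicates. The transgenic flies expressed the eGFP-tagged protein, and the immunoprecipitation used an antibody against GFP. The strain is Dip2-GFP and the antibody field names Dip2, whereas the source field gives Dlip2 as the gene targeted by the insertion. The labels give no heat treatment, no driving promoter and no comparison group, and whole embryos mix many cell types, so no level can be tied to a tissue.

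Heat shock proteins are molecular chaperones that keep other proteins folded or return them to their folded state. Small heat shock proteins hold unfolding proteins without using ATP, whereas the Hsp70, Hsp90 and Hsp60 families fold them in cycles of ATP hydrolysis. Inducible heat shock genes are switched on by heat shock factor (HSF), which binds inverted GAA units upstream of them, while the constitutive members are expressed in unstressed cells. In Drosophila the GAGA factor binds near the starts of several heat shock genes, where RNA polymerase II waits in a paused state before heat shock.

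Each peak carries a signal from the authors' peak caller and a scaled irreproducible discovery rate (IDR) score with a maximum of 1000, where a high score means that the authors' procedure ranked the peak as reproducible. The authors deposited 4 thresholded lists, 1 from each replicate and the lists called conservative and optimal here, both made from the alignments of both replicates. They held 550 peaks for replicate 1, 742 for replicate 2, 629 in the conservative list and 973 in the optimal list, with lowest scores of 830 or 831. Each has a ranked list of candidate peaks, of which there were 104058 to 140235, with a median signal of 10.6 to 16.9. No read counts are in the lists, which leaves the depth of the libraries unknown and every value without a counting error. The scaling of the signal is not stated, so it was compared only within a list. The 2 replicates are given side by side, and no test between conditions exists in a single group.

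Although the site left out also held motif words, only the sequences under 3 of the 4 thresholded member sites are shown. Each is the first 300 bases of the conservative peak, 5' to 3', from RefSeq's Release 6 sequence (dm6), and the summit is base 183. Capitals mark matches to any of the motif words searched, and none of the stretches reaches the transcribed part of its gene except at Hsp83, where the peak lies in an intron.
Hsp27 (chr3L:9383723-9384022, + strand): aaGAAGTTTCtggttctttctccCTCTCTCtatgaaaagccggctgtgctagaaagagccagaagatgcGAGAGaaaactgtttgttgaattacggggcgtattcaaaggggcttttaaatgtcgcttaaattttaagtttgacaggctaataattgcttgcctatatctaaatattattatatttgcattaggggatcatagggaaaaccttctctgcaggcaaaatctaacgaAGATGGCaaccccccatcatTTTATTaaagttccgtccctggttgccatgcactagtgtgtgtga
Hsp83 (chr3L:3194105-3194404, + strand): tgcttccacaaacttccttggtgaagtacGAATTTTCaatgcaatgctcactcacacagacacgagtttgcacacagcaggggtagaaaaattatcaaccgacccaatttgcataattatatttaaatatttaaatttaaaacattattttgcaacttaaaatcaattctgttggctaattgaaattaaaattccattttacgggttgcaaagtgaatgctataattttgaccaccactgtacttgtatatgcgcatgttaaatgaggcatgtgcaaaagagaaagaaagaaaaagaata
Hsc70-4 (chr3R:15242281-15242580, + strand): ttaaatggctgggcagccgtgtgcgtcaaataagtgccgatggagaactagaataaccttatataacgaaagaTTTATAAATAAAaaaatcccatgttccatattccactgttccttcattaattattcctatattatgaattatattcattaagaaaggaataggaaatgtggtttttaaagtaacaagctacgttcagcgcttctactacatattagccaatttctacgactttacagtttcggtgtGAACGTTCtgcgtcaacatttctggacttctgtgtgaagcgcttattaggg

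The words searched on both strands were the inverted pairs of heat shock units GAANNTTC and TTCNNGAA, GAGAG (GAGA factor), the CTCF core (the form AGAGGGC, the form AGATGGC, the form AGGGGGC or the form AGGTGGC), the TATA box TATAAA, TATCGATA (DRE), CGATA (BEAF-32, contained in the DRE word), GGTCACACT (M1BP), CAGGTAG (Zelda), and for Caudal either the word TTTATG or the word TTTATT. Within 100 bp of the summit, 3 of the 4 thresholded member sites held at least 1 of them, as did 92.96% of the 611 thresholded peaks on the arms, 73.3% of the other candidates and 88.9% of promoter windows of the same 201 bp. At Hsp27 these were the CTCF word AGATGGC, 56 bp from the summit on the side of the gene, and TTTATT, 75.5 bp from it. Hsc70-4 held 1 inverted heat shock pair, GAACGTTC, 70.5 bp from the summit and at −153.5 bp from the start, where a negative value is upstream. Hsc70-5 held TATAAA, with its nearest match 38.5 bp inside the gene from the summit, and Hsp83 held none in this window. The CTCF core was present in 32.6% of thresholded peaks, 9.27% of other candidates and 5.93% of promoter windows. The Caudal words were in 60.4%, 38.0% and 59.5% of the same sets, and TATAAA in 37.0%, 14.6% and 34.0%. The promoter windows ran from 250 to 50 bp before the first start of each gene. They do not cover the start itself, near which the Hsc70-5 summit lay. The pair GAANNTTC was present in 5.56% of thresholded peaks, 5.06% of other candidates and 6.13% of promoter windows.

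With 250 bp on either side of the summit, GAANNTTC was found at 3 of the 4 member sites. The word was GAAGTTTC at Hsp27, at −334.5 bp from the start, and GAATTTTC at Hsp83, at −149.5 bp from the intronic summit. In windows of 501 bp the pair was present in 12.8% of thresholded peaks, 12.6% of other candidates and 14.3% of promoters, and 4 sites are too few to set against these shares. Hsp27 also held 3 matches to GAGAG on its upstream side, the nearest at −111 bp from the summit, and TATAAA at −25.5 bp from its start. GAGAG was present in 49.9% of thresholded peaks, 47.3% of other candidates and 41.0% of promoters of that length. TATAAA was in 57.6%, 34.5% and 61.6% of the same sets. The promoter windows of this length ran from 501 to 1 bp before the first start. A match is a stretch of letters and was not tested as a binding site. The 201 bp windows had a GC content of 37.8% at Hsp27, 28.4% at Hsp83, 33.8% at Hsc70-4 and 33.3% at Hsc70-5. The medians were 36.3% over thresholded peaks, 46.8% over the other candidates and 35.8% over the promoter windows.

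Hsp27 carried the strongest member site, a peak at the promoter that was in every thresholded list. Hsp27 encodes a small heat shock protein found in the nucleus. Its conservative peak spanned chr3L:9383723-9384086 and its summit lay at −158 bp from the only annotated start, outside the gene. The signal was 171 with a score of 1000 and an IDR of 0.00129, which placed it 244th of 629 peaks. Replicate 1 had a signal of 70.0 there and replicate 2 had 104, each with a score of 1000, and the summits of the replicates were 3 bp apart. On the chromosome arms, 372 pairs of overlapping thresholded peaks of the replicates had a median summit distance of 13 bp, and 71.0% lay within 25 bp.

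The other 3 small heat shock genes had candidates but no thresholded peak in any of the 4 lists. These 4 genes sit in 1 cluster, with 12.764 kb between the outer ends of Hsp22 and Hsp27, so they share a locus and are not independent of each other. Across the cluster and 1 kb on either side the conservative ranked list held 11 summits, of which the Hsp27 promoter summit was in the thresholded list. The other 10 had signals of 12.6 to 37.9, with a median of 22.4, so the Hsp27 summit was 4.51 times as strong as the next. That next summit, 37.9, was inside Hsp27 itself, 497 bp after the start, with a score of 108. Hsp67Ba, another small heat shock gene between Hsp26 and Hsp23, also had a candidate of 37.9.

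**Figure D1:**
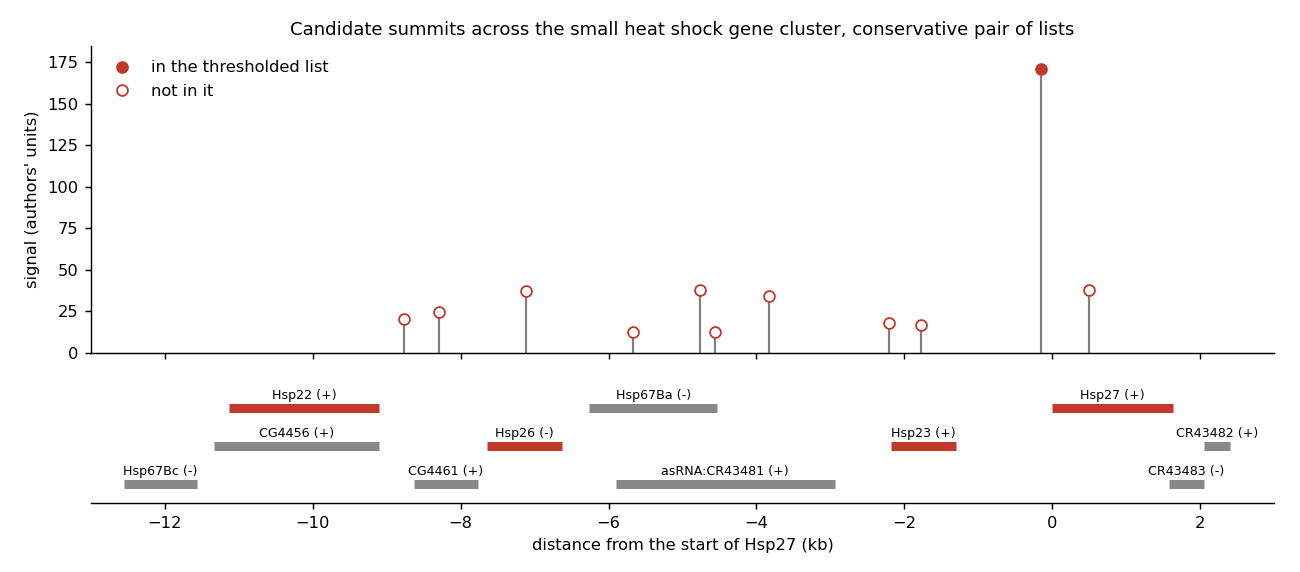
Signal of every candidate summit of the conservative pair of lists (vertical axis, authors' units) by distance from the start of Hsp27 (horizontal axis, kb), with genes drawn to scale below and the 4 member genes in red. The filled point at 171 is the Hsp27 promoter summit, and the 10 open points are candidates outside the thresholded list, at 12.6 to 37.9.

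Hsp26 had the highest score in the conservative list among the members without a thresholded peak. It encodes a cytosolic small heat shock protein, and its strongest conservative candidate lay 432 bp inside the gene, in a coding exon, with a signal of 37.3 and a score of 351. The strongest Hsp26 candidate of replicate 1 lay at 390 bp, with 21.0 and a score of 84. That of replicate 2 lay at 559 bp, with 24.3 and a score of 17. The lowest member score inside the threshold was 881 at Hsc70-4, so no member's strongest conservative candidate scored between 351 and 881. In the optimal ranked list Hsp22, with 399, and Hsc70-3, with 374, scored above Hsp26, with 277.

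Hsp23 and Hsp22 had weaker candidates in the conservative list, and the positions of their strongest candidates also differed between replicates. Hsp23, also a cytosolic small heat shock protein, had a conservative signal of 18.0 at −27 bp from its start, with a score of 52. In replicate 1 its strongest candidate was 12.1 at 518 bp inside the gene model's start, and in replicate 2 it was 17.5 at 152 bp. Hsp22, a small heat shock protein of mitochondria, had a conservative signal of 24.6 with a score of 64 at a summit beyond its 3' end. That summit also counted for Hsp26 and lay inside CG4461, another small heat shock gene. In the optimal ranked list the strongest Hsp22 candidate was 40.3 with a score of 399, in a coding exon. This put Hsp22 at percentile 72.0 among the strongest candidates of all genes, with 20.1 in the conservative list. In replicate 2 the strongest Hsp22 candidate was 19.0, in the gene, and in replicate 1 it was 10.2, at the shared site beyond the gene. The strongest candidate of Hsp22, and that of Hsp23, thus lay at different positions in the replicates.

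Hsp68, an inducible Hsp70-family protein, had the lowest strongest candidate of the members with one in the conservative list. Its 2 summits there had signals of 4.46 and 4.42 and scores of 18, and both lay beyond the 3' end. The optimal ranked list added a stronger summit of 22.1 with a score of 24, in a coding exon 1752 bp after the start. Replicate 1 had no candidate at Hsp68, whereas replicate 2 had 5, the strongest 11.4 with a score of 25, at 1783 bp after the start. None of the Hsp68 candidates in the 4 ranked lists was upstream of its start.

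Among the 5 constitutive genes, Hsp83, Hsc70-4 and Hsc70-5 had a thresholded peak in the conservative and optimal lists. Hsp83 encodes the Hsp90 of flies, which is expressed without stress and raised further by heat. Its site was not at the promoter: the peak spanned chr3L:3194105-3194468, and the summit lay in the intron chr3L:3193368-3194498, 1318 bp after the first start and 212 bp before the start of the coding sequence. The conservative signal was 87.7 with a score of 938 and an IDR of 0.00549, rank 485 of 629. Replicate 2 had 54.7 with a score of 1000, and replicate 1 had 34.1 with a score of 586, which was not in its thresholded list. The replicates' summits were 9 bp apart. The 8 other candidates at Hsp83 had signals of 2.46 to 26.5, and the candidates nearest to the first start, at −91 bp and 113 bp, had 9.32 and 13.6.

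Hsc70-4 encodes the main constitutive Hsp70 of the cytosol. Its conservative peak, chr3R:15242281-15242644, had its summit at −224 bp from the start of Hsc70-4 and at −227 bp from that of tefu, the fly ATM kinase gene on the other strand. The signal of 72.0, with a score of 881 and an IDR of 0.00752, ranked 568th of 629 and was the lowest of the 4 member sites. Neither replicate had it in its own thresholded list: replicate 1 had 36.2 with a score of 35, and replicate 2 had 33.5 with a score of 243. In signal these candidates ranked 922nd of 104058 in replicate 1 and 1254th of 111249 in replicate 2. Among all replicate 1 candidates with a signal of 30 to 40, the median score was 255 and 2.53% were in the thresholded list, and in replicate 2 the median was 257.5 with 2.89% in the list. A peak between these divergent starts, 451 bp apart, cannot be given to either gene.

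Hsc70-5, the mitochondrial Hsp70, had the second strongest member site. The peak spanned chr2R:14256000-14256363 with its summit 10 bp inside the gene, in the 5' UTR, and at −311 bp from the start of CG8531 on the other strand. The conservative signal was 95.3 with a score of 1000 and an IDR of 0.00390, rank 444 of 629. Replicate 2 had 60.2 with a score of 1000. Replicate 1 had 2 candidates under the same peak, with 39.4 and a score of 741 and with 24.6 and a score of 740, neither in its thresholded list. Its stronger summit lay 67 bp from that of replicate 2, the widest distance of the 4 member sites. The Hsc70-5 and CG8531 starts face away from each other, 301 bp apart, and the peak interval covers part of the stretch between them.

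**Figure D2:**
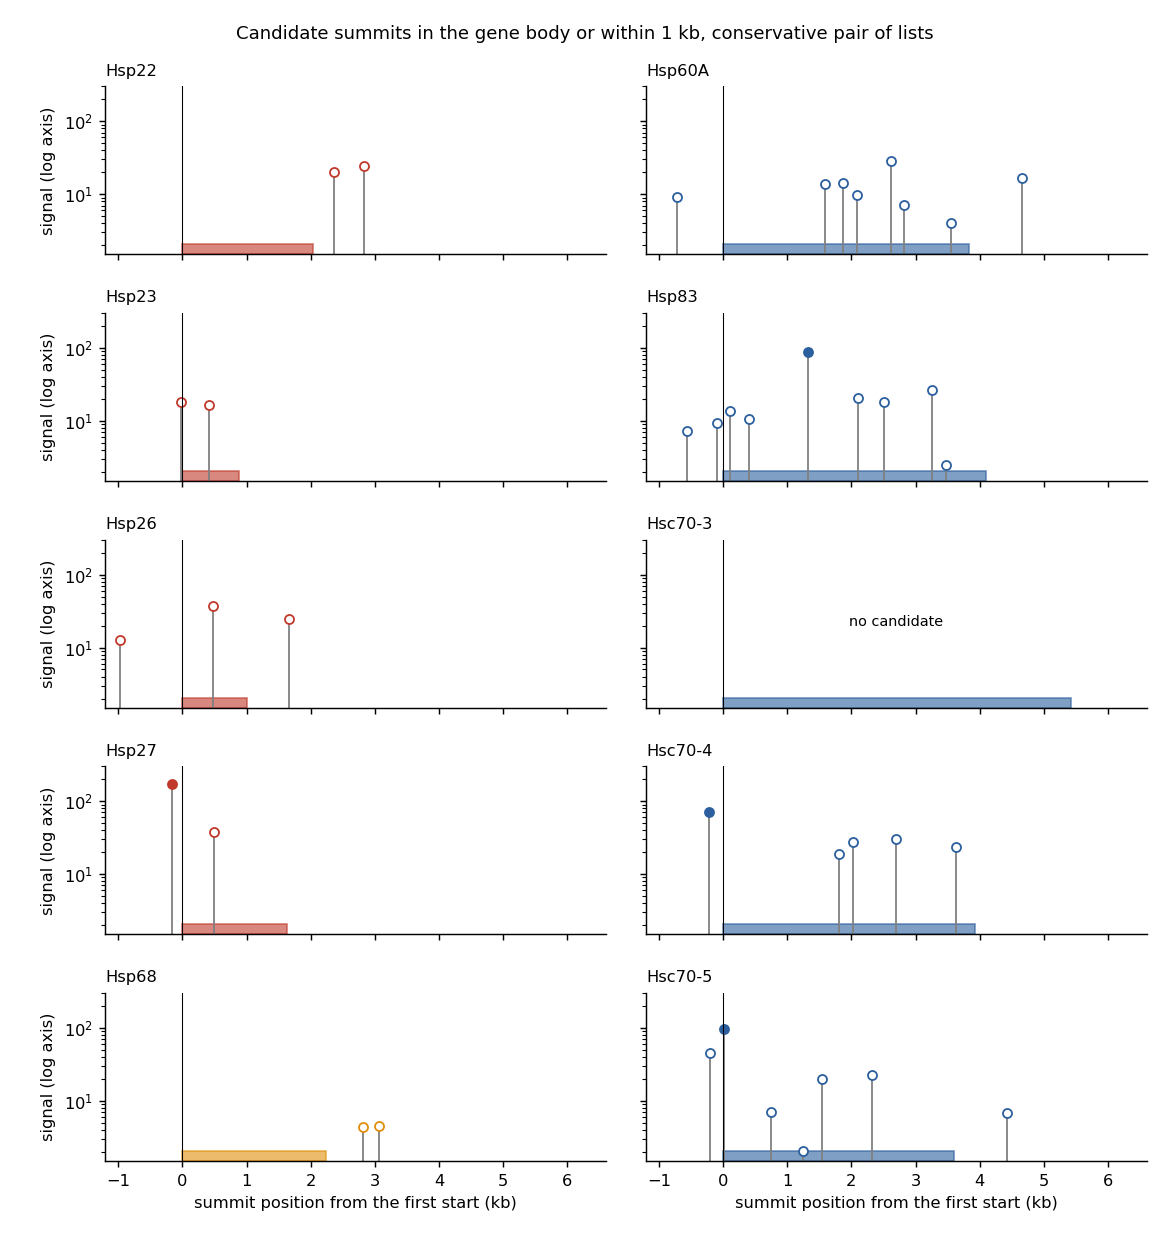
Candidate summits of the conservative pair of lists at each gene by position from its first start in the direction of transcription (horizontal axis, kb) and signal (vertical axis, log, authors' units), with the gene body as a bar and summits of the thresholded list filled. The filled summits lie at −158 bp for Hsp27, −224 bp for Hsc70-4, +10 bp for Hsc70-5 and +1318 bp for Hsp83.

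The remaining constitutive genes had no thresholded peak in any of the 4 lists. Hsp60A, the mitochondrial chaperonin, had 8 conservative candidates, and the strongest, 28.6 with a score of 123, lay in a coding exon, 1298 bp after the nearest start. In replicate 1 the strongest Hsp60A candidate was 16.9 and in replicate 2 it was 14.99, with scores of 42 and 35. Hsc70-3, the BiP of the endoplasmic reticulum, had no candidate in the conservative list or in replicate 1. In replicate 2 its strongest candidate was 24.4 with a score of 148, 194 bp after the nearest of its 4 starts. In the optimal ranked list it was 42.2 with a score of 374, at 196 bp.

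By class, the conservative thresholded list held a summit at 1 of 4 small heat shock genes, at 0 of 1 inducible gene and at 3 of 5 constitutive genes. Over all protein-coding genes the share was 5.43%. The constitutive count includes Hsc70-4, whose peak lay between divergent starts and was in neither replicate's thresholded list. It also includes Hsc70-5, whose peak covered part of the stretch between its start and the divergent start of CG8531. Neither Hsc70-5 nor Hsp83 was in the thresholded list of replicate 1. With Hsp83 moved to the inducible class the constitutive count was 2 of 4. Counting the strongest conservative candidate of each gene, thresholded or not, the small genes had a median signal of 30.9, with a range of 18.0 to 171, and a median score of 207.5. Hsp68 had 4.46 and a score of 18, and 22.1 with a score of 24 in the optimal ranked list. The 4 constitutive genes with a candidate had a median signal of 79.9, with a range of 28.6 to 95.3, and a median score of 909.5. Small and constitutive medians were 38.8 and 72.0 in the optimal ranked list, 16.6 and 35.1 in replicate 1, and 21.7 and 33.5 in replicate 2. Hsc70-3 had no candidate in the conservative list or in replicate 1, so it is missing from those medians. The small and constitutive ranges overlapped, and the highest signal belonged to a small gene. The classes hold 1 to 5 genes, and their difference was not tested. The constitutive genes are also longer, from 3595 to 5422 bp, against 884 to 2034 bp for the small genes. The thresholded summits lay at −224 bp from the start for Hsc70-4, 10 bp for Hsc70-5 and 1318 bp after the first start for Hsp83. An effect of gene length was not tested.

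**Figure D3:**
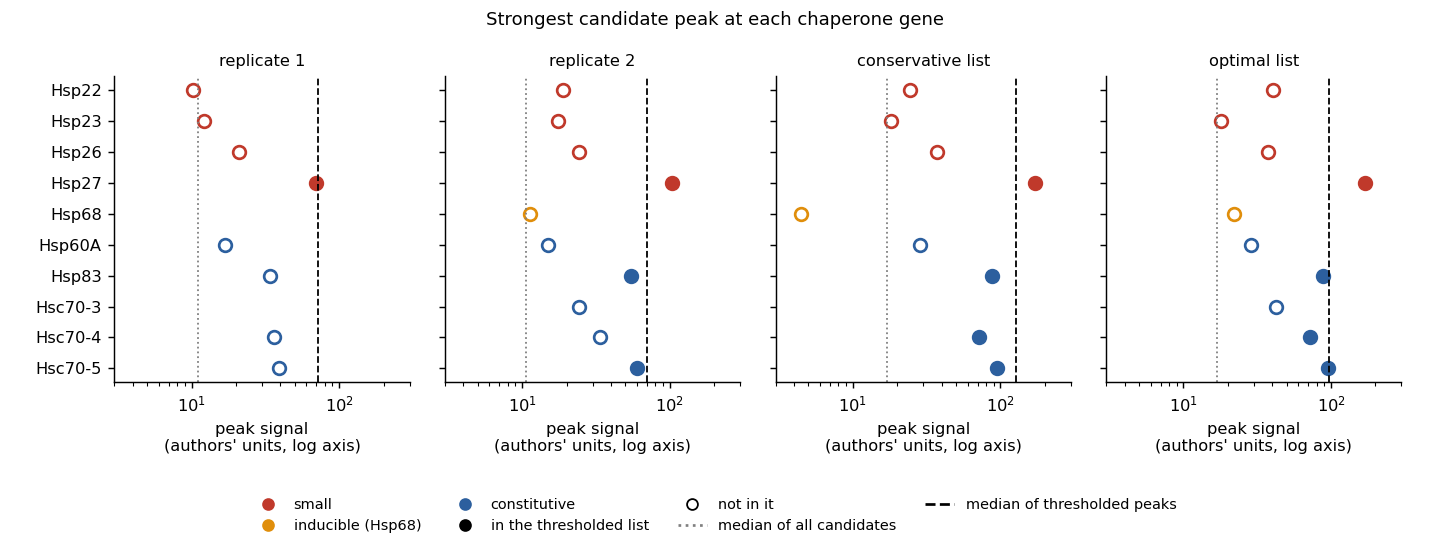
Strongest candidate signal at each gene (log axis, authors' units) in each replicate's ranked list and in the conservative and optimal ranked lists, with filled points for summits in the thresholded list and the medians of candidates (dotted) and thresholded peaks (dashed). Hsp27 is the highest member in every panel, and Hsp83, Hsc70-4 and Hsc70-5 follow it.

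The counts were read against all protein-coding genes counted the same way. In the conservative thresholded list 4 of the 10 members had a summit, against 5.43% of all genes. The optimal list held the same 4 members, against 7.34% of genes. Replicate 1 held Hsp27 alone, against 4.11% of genes, and replicate 2 held Hsp27, Hsp83 and Hsc70-5, against 6.08%. The members were named with earlier results of these data known, and 4 of them share 1 cluster. These counts are therefore a description and carry no test. Of the 42 other chaperone and heat shock genes described below, 2 had a summit in the conservative thresholded list. Median gene length was 2913 bp for the members and 2164.5 bp for all protein-coding genes.

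Counts of candidates said little about the members, since most genes had one. In the conservative ranked list 9 of the 10 members had a candidate summit, against 83.3% of all genes. The optimal ranked list had all 10, against 89.2%. Replicate 1 had 8, lacking Hsp68 and Hsc70-3, against 80.4%, and replicate 2 had all 10, against 94.5%. These shares lie near the background.

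Hsp27, Hsp83, Hsc70-4 and Hsc70-5 had the 4 strongest candidates among the members in each replicate as well as in the lists made from both. Ranked among the strongest candidates of all genes with one, Hsp27 was at percentile 97.2 in the conservative list, 97.1 in replicate 1 and 97.5 in replicate 2. Hsp83, Hsc70-4 and Hsc70-5 were at 93.1 to 94.9 in the conservative list, 92.5 to 94.1 in replicate 1 and 89.9 to 95.5 in replicate 2. Hsp26 was at 63.2, 61.9 and 73.2 in the same order of lists. Hsp60A, Hsp22, Hsp23 and Hsp68 lay at 0.103 to 33.3 in the conservative list, with Hsp68 lowest. Hsp68 was at 13.2 in the optimal list, and Hsp22 was at 47.1 in replicate 2. Hsc70-3 was at 73.4 in replicate 2 and had no candidate in replicate 1. Over the members with a candidate, the median strongest signal in the conservative list was 37.3, against 33.3 over all such genes.

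Among thresholded peaks the member sites were of ordinary or low strength. The median signal of the 629 conservative peaks was 127, above Hsp83, Hsc70-4 and Hsc70-5 and below Hsp27. Of the 611 peaks on the arms, 68.6% had a score of 1000, as Hsp27 and Hsc70-5 did, and 51.6% had a summit within 500 bp of a start, as Hsp27, Hsc70-4 and Hsc70-5 did. The median offset of those promoter summits was −131 bp. The member peaks were each 364 bp wide, the width of 67.9% of peaks in the conservative list, so their widths carry no further information.

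The promoter peaks just above and just below each member site in signal were taken as the most alike in this measure. Around Hsp27 they were the peaks nearest to CG4338 at 172 and Hgsnat at 170.3. Around Hsc70-5 they were those of Ino80, a chromatin remodelling ATPase, at 95.9 and bowl, a zinc finger transcription factor, at 95.1. The neighbours of Hsp83 were Sptz at 87.8 and Pyroxd1 at 87.4, and those of Hsc70-4 were CG10376 at 72.1 and Tmf at 71.9. Scores of these 8 neighbours ran from 851 to 1000, and the member scores from 881 to 1000. All came from the thresholded list, whose lowest score was 830, so closeness in score was set by this choice.

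The share of candidates in the thresholded list grew with signal. In the conservative list 22.4% of candidates with a signal of 60 to 80 were in the thresholded list, 63.5% of those at 80 to 100 and 90.7% of those at 150 to 250, the bins of Hsc70-4, of Hsp83 and Hsc70-5, and of Hsp27. In replicate 1, Hsp83, Hsc70-4 and Hsc70-5 all had signals of 34.1 to 39.4, yet their scores were 586, 35 and 741. Similar signal therefore came with scores on both sides of the median of 255 for that range.

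**Figure D4:**
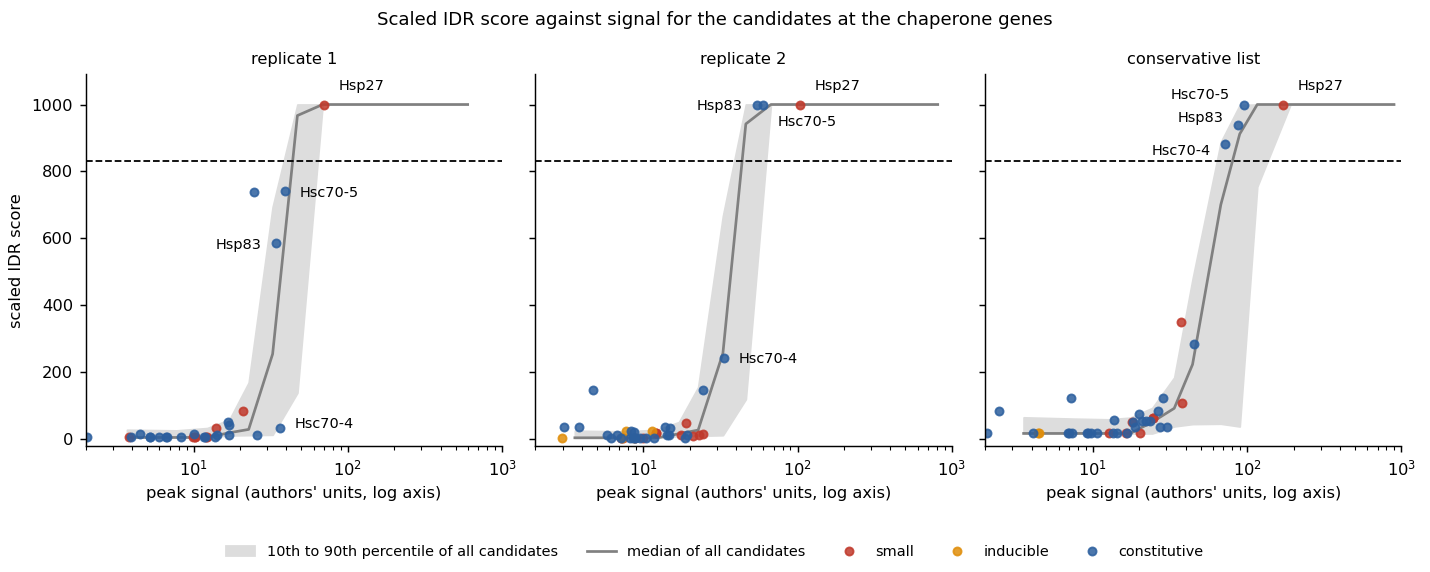
Scaled IDR score (vertical axis) against signal (horizontal axis, log, authors' units) for every member candidate in the ranked lists of replicate 1, replicate 2 and the conservative pair, over the median and the 10th to 90th percentile of all candidates by signal, with the lowest thresholded score dashed. In replicate 1 Hsp27 lies above the dashed line, at 1000, and in replicate 2 Hsc70-4 lies below it, at 243.

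A list of 42 other chaperone and heat shock genes was counted in the same way. In the conservative list they were at l(2)efl, a small heat shock gene of the alpha-crystallin family, and at Trl, which encodes the GAGA factor, 2 of 42 against 5.43% of all genes. The l(2)efl summit had a signal of 200.3 and lay at −873 bp from its start, and the Trl summit had 364 and lay in an intron, both with a score of 1000. Both were also in each replicate's thresholded list, with 78.1 in replicate 1 and 116 in replicate 2 for l(2)efl, and 156 and 207 for Trl in the same order. Replicate 2 added mrj, a DnaJ co-chaperone, at 95.6. The strongest mrj candidate of replicate 1 had 18.3 with a score of 22, at another summit. In the conservative and optimal ranked lists the strongest had 26.0, also not at the summit of replicate 2. None of the 11 chaperonin genes, 3 other Hsp70-family genes or 2 other Hsp90-family genes had a thresholded summit in any of the 4 lists.

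The 6 near-identical Hsp70 copies, the classical heat-inducible genes, had no thresholded summit in any of the 4 lists either, but 1 of them had a strong candidate. Hsp70Ba had a summit at −858 bp from its start with a signal of 71.4 and a score of 746 in the conservative ranked list, close to the 72.0 of Hsc70-4. In replicate 2 the same site had 44.6 and a score of 1000, and in replicate 1 the strongest candidate had 26.6 and a score of 30. The score of 1000 was above the lowest in the thresholded list of replicate 2, 831, and the site was not in that list. It was 1 of 26 such candidates there, with 147 in replicate 1, 125 in the optimal list and 21 in the conservative list. An extra input went into the thresholded lists and not the ranked ones, per the deposited text, and what it held was not stated there. Reads from near-identical copies cannot be told apart, so values at the Hsp70 copies are uncertain.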

How the data were processed

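The samples were 2 biological replicates of anti-GFP ChIP-seq on whole embryos, with chromatin sonicated to 200 to 800 bp, per the labels. The authors deposited thresholded and ranked peak lists on dm6. Their signal, a value of the authors' peak caller, has no stated scaling. The scaled IDR score and the −log10 IDR were used as deposited, and IDR was recomputed from the latter. Per the text deposited with the samples, all lists share 1 input taken to be the control. For the aligner and the peak caller, name and version were not given in the sources used here, nor was how an IDR was obtained from 1 replicate. The lists hold no counts, so depth is unknown.

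Summits (the interval start plus the deposited summit offset) were assigned to Ensembl release 115 genes with Python 3.11.15 and pandas 2.3.3, after the assignment was tested on simulated data. Offsets were measured from the nearest annotated start of the gene, negative upstream, unless the first start is named. Transposable elements were left out. Positions are 1-based. A summit counted for every gene whose window held it. A percentile is the share of peaks, or of genes, with a lower or equal signal, the peak or gene itself included. The conservative list was the main one, and the alternatives were the other lists, windows of 500 bp and of the gene body alone, a score of 1000, overlap of 1 bp, the nearest start, Hsp83 as inducible, and motif windows of 50 and 250 bp. Motif words were matched in RefSeq's Release 6 sequence.

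The genes named are the 10 members, genes with a start within 1000 bp of a thresholded member summit, listed chaperone genes with a thresholded conservative summit, and the promoter peaks next in signal. Hsp67Ba, CG4461, mrj and Hsp70Ba fall outside this rule and were named after their values were seen. Of 43 other chaperone names, 42 genes were found, 1 pair being synonyms. The members and lists were chosen with earlier results of these data known.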

Additional observations from a re-analysis of the deposited data

How the results depend on the processing

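Of 48 values recomputed under an alternative, 35 were within 1.5 times the count, or within 1 SD between replicates for an offset or percentile, and 13 were not. That SD came from the same 2 single-replicate values that it was then used to judge. The window of 500 bp and the nearest start kept the same 4 genes. The 35 is therefore no measure of robustness. The count of members with a thresholded summit (4) was 1 to 3 with either replicate left out, 2 for the gene body alone and 2 at a score of 1000. The lower end was replicate 1 alone, which held Hsp27. Constitutive genes (3) numbered 0 to 2 with a replicate left out and 1 at a score of 1000. Small genes (1) numbered 0 for the gene body alone and 2 by peak overlap of 1 bp, since the Hsp27 peak reached the window of Hsp23. The median offset of −74 bp became 540.5 bp for the gene body alone. The median signal percentile among thresholded peaks, 26.3, was 45.9 in the optimal list, 39.8 to 48.9 with a replicate left out and 45.5 at a score of 1000. Member sites with a motif word (3) numbered 1 with 50 bp on either side. No paired analysis was possible because there is 1 group. With 2 replicates, unknown depth and no untagged sample among the files used, Dip2-eGFP binding and other sources of enrichment cannot be told apart. The counts say nothing of heat-shocked embryos, and no expression was measured.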
